A study of Homo sapiens with 2 samples.

Results

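The G2/M and mitosis genes are 31 genes whose products carry a cell from the end of DNA replication through chromosome segregation and cytokinesis. They were chosen by name, as the genes to which a probe set of the platform annotation is assigned alone, and they make up 31 of the 19775 genes with such a probe set and 63 of the 41091 probe sets. This list and those set beside it were chosen with earlier results of these data known. All 31 had the probe set that stands for them, the one with the highest mean over both arrays, above the floor of 22.3 on both arrays, where the floor is the median of all values and a gene above it on at least 1 array is called measured. Of all genes 13291 were measured.

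Total RNA from 2 human kidney cancer cell lines was labelled with biotin and measured on expression arrays, a single one for each line. The parental line, 786-O, is a renal cell carcinoma line with a mutated VHL allele. The second line was derived from it, holds a functional VHL allele, and its cells are termed VHL-restored in the text, so both share the 786-O background. The labels give no treatment or infection, and do not say how VHL was introduced, whether the derived line is 1 clone or how the cultures were grown. Because there was 1 array for each line, no difference below has a replicate check and no test was possible, and precision is limited by that number. Differences are given as log2(VHL-restored + 16) minus log2(786-O + 16) of the deposited intensities, in arbitrary units, so a negative value is lower on the array labelled as that line; folds are on that scale.

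The targeted gene does not check the labels. VHL read 28.9 in 786-O and 15.96 in VHL-restored cells on its brighter probe set, and 6.32 and 7.96 on the other, so that only the first of these values was above the floor, and probes outside an introduced sequence would not detect it. Every direction therefore rests on the labels. Of 10 markers of a renal carcinoma line, 9 had a probe set and all 9 were above the floor, among them the kidney transcription factor PAX8 (1521 and 1068) and the cadherin CDH2 (1810 and 1347), with CDH6 at 259 and 351 and KRT8 at 1771 and 2116. Leukocyte markers were above the floor in 2 of 8, with summed intensities of 125 in 786-O and 398 in VHL-restored cells, endothelial markers in 4 of 7 (136 and 154), and fibroblast and pericyte markers in 4 of 8 (293 and 239). PTPRC, CDH5, KDR and PDGFRB, which define those other cell types, were below the floor on both arrays. LAPTM5, at 25.9 and 292, made up most of the leukocyte sum in VHL-restored cells. CD3D, PECAM1, VWF, TEK and CLDN5 stayed at or under 35.2, and PDPN (72.9 and 9.79), LUM (5.64 and 37.1), RGS5 (60.9 and 42.3) and COL1A1 (94.8 and 79.9) were the fibroblast and pericyte markers above the floor.

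Entry into mitosis is driven by the kinase CDK1 bound to cyclins A and B, and exit by the anaphase-promoting complex (APC/C), a ubiquitin ligase that marks securin and the cyclins for destruction. The genes of this machinery are transcribed together late in the cycle. Their promoters are known for a cell cycle genes homology region, or CHR, bound by the LIN54 subunit of the MuvB complex, and for CCAAT boxes bound by NF-Y. With the retinoblastoma relatives RBL1 and RBL2 and with E2F4, MuvB forms the repressive DREAM complex, and with MYBL2 and FOXM1 it activates the same genes.

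Promoters are shown because the genes are known to be transcribed together through these 2 elements. A RefSeq promoter window, from 250 bases before to 50 bases after the annotated gene start in GRCh38.p14, was at hand for 26 of the 31 genes (not AURKA, BIRC5, TTK, TPX2 or UBE2C). The CHR was searched as TTTGAA or TTCGAA and the CCAAT box as CCAAT, each on both strands, and neither motif contains the other, although matches may overlap. The following are the 250 bases before the start for the 4 genes with the lowest differences among those that hold both elements, 5′ to 3′ on the gene's strand, with the matches in capitals. CDK1 is on the plus strand at chr10:60778081-60778330, PLK1 on the plus strand at chr16:23678639-23678888, HMMR on the plus strand at chr5:163460382-163460631 and BUB1 on the minus strand at chr2:110678064-110678313.
CDK1: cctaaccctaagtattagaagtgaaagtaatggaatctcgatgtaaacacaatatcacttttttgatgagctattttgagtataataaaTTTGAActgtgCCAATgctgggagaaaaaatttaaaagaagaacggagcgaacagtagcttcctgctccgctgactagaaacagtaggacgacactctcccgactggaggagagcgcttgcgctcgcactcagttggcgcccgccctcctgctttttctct
PLK1: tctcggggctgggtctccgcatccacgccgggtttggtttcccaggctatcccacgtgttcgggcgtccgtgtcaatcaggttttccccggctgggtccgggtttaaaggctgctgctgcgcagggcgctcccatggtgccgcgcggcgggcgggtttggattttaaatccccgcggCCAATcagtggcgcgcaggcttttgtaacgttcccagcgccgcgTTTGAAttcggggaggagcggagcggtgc
HMMR: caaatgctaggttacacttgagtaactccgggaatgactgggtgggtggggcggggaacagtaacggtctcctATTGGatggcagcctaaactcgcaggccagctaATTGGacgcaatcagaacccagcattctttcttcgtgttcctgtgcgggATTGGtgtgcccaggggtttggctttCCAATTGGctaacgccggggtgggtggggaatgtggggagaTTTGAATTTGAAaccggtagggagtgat
BUB1: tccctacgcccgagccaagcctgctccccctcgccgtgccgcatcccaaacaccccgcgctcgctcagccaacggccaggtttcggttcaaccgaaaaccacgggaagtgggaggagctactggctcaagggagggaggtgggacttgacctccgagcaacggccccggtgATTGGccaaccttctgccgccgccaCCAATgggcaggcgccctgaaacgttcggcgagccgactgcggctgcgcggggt
In PLK1 a CCAAT box at -73 to -69 lies upstream of a CHR at -29 to -24, counted from the gene start with no base 0. HMMR holds 2 adjacent CHR matches and 5 CCAAT matches, a pair of which overlap on opposite strands. In CDK1 the CHR is upstream of the CCAAT box, at -161 to -156 against -150 to -146. The CHR match of BUB1 lies just after the start, at 2 to 7, outside the printed stretch, and only its 2 CCAAT boxes are capitalised.

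A CHR was found in 20 of the 26 windows (76.9%), against 16.4% of all 35116 promoter windows, and a CCAAT box in 21 (80.8%), against 34.6%. Both were found in 16 (61.5%), against 6.38% of all windows, and in 15 of the 20 genes with a CHR a match lay within 50 bases of the start. CENPE alone held neither in its window. Members with a CHR did not have lower differences than members without one: their median was -0.30 over 20 genes, against -0.47 over the 6 without. In the longer list of other mitosis genes, described below, the order was the reverse. There the median was -0.20 over 47 genes with a CHR, against -0.04 over the 37 without. Over all measured genes with a window, the 507 with both motifs had a median of -0.01, against 0.06 over the 10169 others. Of these 507, 51.3% were lower in VHL-restored cells, against 41.8% of all measured genes. The 459 of them outside the mitosis lists had a median of 0.00 with 47.9% lower. A match describes letters in the window and says nothing about binding in these cells.

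**Figure D1:**
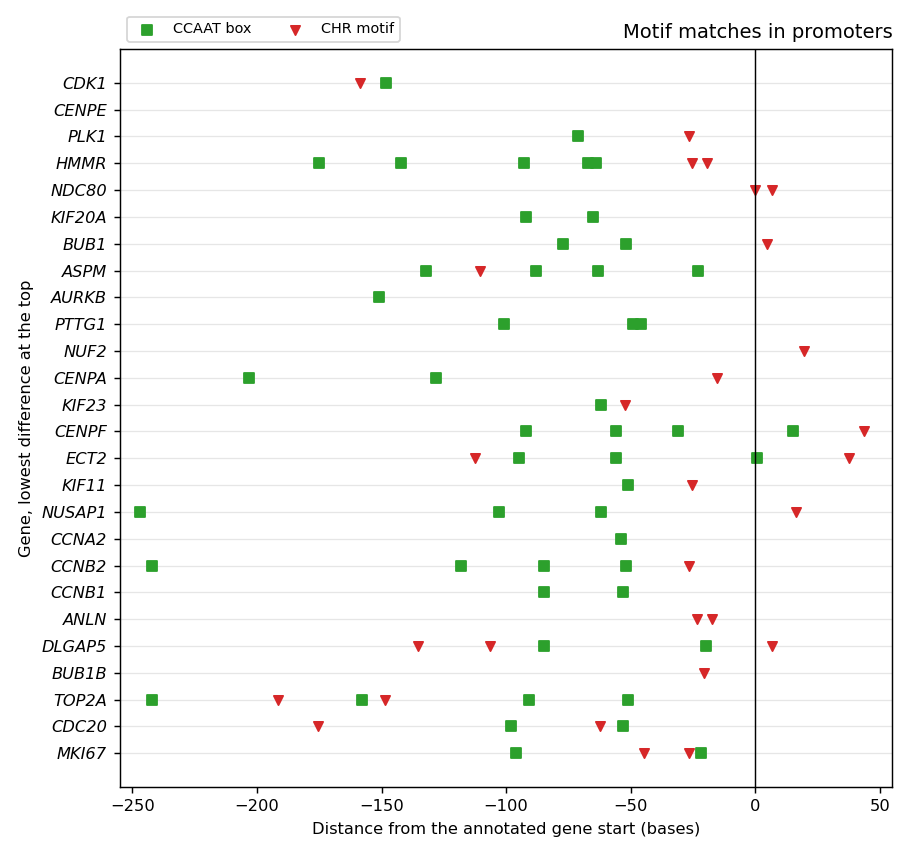
Positions of CHR (red triangles) and CCAAT (green squares) matches in the promoter windows of 26 mitosis genes, in bases from the annotated gene start (vertical line), with the gene of the lowest log2 difference at the top. CHR matches lie within 50 bases of the start in 15 genes, and CENPE, KIF20A, AURKB, PTTG1, CCNA2 and CCNB1 have no CHR match.

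Mitosis genes were mostly lower in VHL-restored cells, by modest amounts. Of the 31, 27 were lower, against 41.8% of all measured genes, and 4 were higher, against 56.9%. Their median difference was -0.37, against 0.05 for all measured genes, with members from -1.09 to 0.18. Differences past a fixed size were few: 5 were at least 1.5-fold lower (16.1%, against 6.61% of all measured genes), UBE2C alone was at least 2-fold lower (background 2.22%), and none was 1.5-fold higher (background 6.29%). Error could be measured only as the spread among probe sets of 1 gene, an SD of 0.33 over 6436 genes with several above the floor, which does not cover cultures or arrays. By more than that SD, 17 of the 31 were lower, against 14.8% of all measured genes, and none was higher, against 18.1%. In RNA from whole cultures, fewer cells in G2 and M phase and less of these transcripts per cell cannot be told apart.

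**Figure D2:**
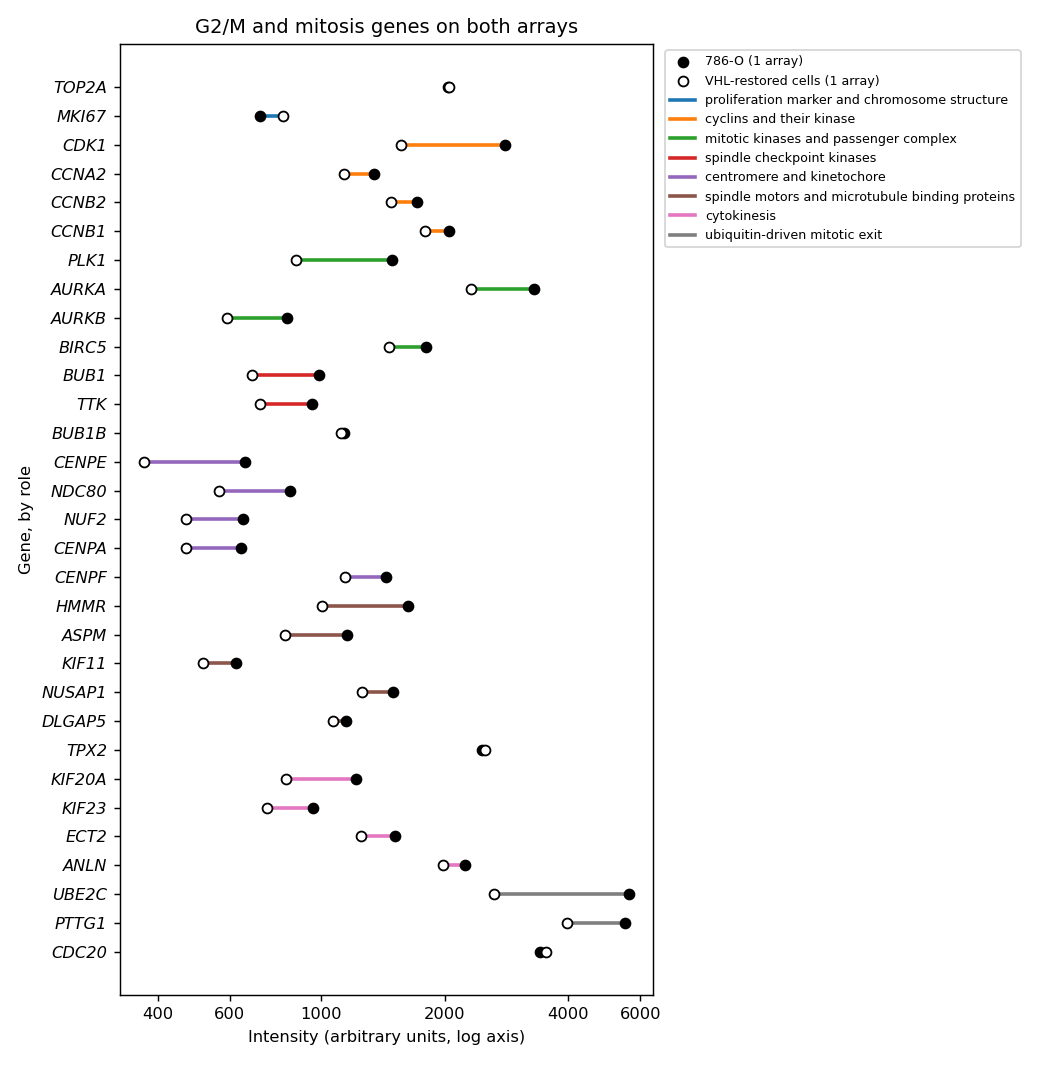
Intensity of each mitosis gene in arbitrary units on a log axis, with filled circles for 786-O and open circles for VHL-restored cells, 1 array each, joined by a line coloured by role. The open circle lies to the left for 27 of 31 genes, with the longest line for UBE2C (5630 and 2639). Levels of different genes come from different probes and are not comparable.

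The cyclins and their kinase were all 4 lower, against 41.8% of all measured genes, with a median of -0.22, against 0.05. Roles hold few genes each and are described here, not compared. CDK1, the kinase that triggers mitosis, read 2807 in 786-O and 1568 in VHL-restored cells, a 1.78-fold lower value with a difference of -0.83. Its other 3 probe sets above the floor were closer together on both arrays, at 2175 and 1864, 1960 and 1623, and 62.5 and 54.98, with differences of -0.22, -0.27 and -0.15. All 4 thus gave the same sign, but the size near 1.8-fold rests on 1 of them. Cyclin A2, from CCNA2, which acts from S phase into early mitosis, read 1345 and 1141 (-0.23), and 848 and 640 (-0.40) on its other probe set. The B-type cyclins, which hold CDK1 active until anaphase, differed by about as much as CCNA2. CCNB1 read 2052 and 1791, a difference of -0.19, and CCNB2 read 1713 and 1480, a difference of -0.21. The other CCNB1 probe set went from 561 to 387 (-0.52), and a dim one of CCNB2 from 30.5 to 34.8 (0.13).

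Mitotic kinases and the passenger complex were also all 4 lower, against 41.8% of all measured genes, with a median of -0.49. PLK1, a kinase needed for centrosome maturation and bipolar spindles, read 1493 in 786-O and 871 in VHL-restored cells and was 1.70-fold lower, on its only probe set. AURKA, the spindle pole kinase, read 3311 and 2318, and its other probe set above the floor 1987 and 1364, so that both gave about the same difference, -0.51 and -0.54. AURKB, the kinase of the chromosomal passenger complex, read 827 and 591 (-0.47), and a dim probe set went from 52.8 to 19.1, below the floor in VHL-restored cells. Survivin, the passenger complex subunit encoded by BIRC5, was less uniform. Its brightest probe set read 1807 and 1467 (-0.30), and 3 others read 1093 and 604 (-0.84), 942 and 713 (-0.39), and 97.7 and 123.9 (0.30).

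Of the 3 spindle checkpoint kinases, 2 were lower by more than the SD between probe sets, against 14.8% of all measured genes. The remaining kinase was nearly equal on the arrays. BUB1, which recruits checkpoint proteins to kinetochores, read 990 and 680 (-0.53), with another probe set at 610 and 512 and a dim one slightly higher in VHL-restored cells, at 31.6 and 36.2. TTK, the kinase that starts checkpoint signalling, read 950 and 710 (-0.41). BUB1B, whose product BubR1 is part of the complex that inhibits the APC/C, read 1140 and 1121, a difference of -0.02.

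Centromere and kinetochore genes were lower in 5 of 5, against 41.8% of all measured genes, with a median of -0.45. The kinesin gene CENPE, whose product moves chromosomes to the spindle equator, read 653 in 786-O and 371 in VHL-restored cells, 1.73-fold lower. NDC80 and NUF2 encode partners in the complex that grips microtubule ends, and they differed by similar amounts: NDC80 read 839 and 563 (-0.56), and NUF2 read 647 and 471 (-0.45). CENPA, the histone H3 variant that marks centromeres, read 640 and 469 (-0.43) on a probe set of the _x_at kind, which may also detect other sequences. CENPF, a large kinetochore protein of late G2 and M phase, read 1444 and 1144 (-0.33), and 206 and 126 (-0.64) on a second probe set.

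Among 6 spindle motor and microtubule binding genes 5 were lower, against 41.8% of all measured genes, with a median of -0.25. HMMR, a spindle protein that also binds hyaluronan, read 1626 and 1004 and was 1.61-fold lower, with its other probe set at 1105 and 843 (-0.38). ASPM, which focuses spindle poles, read 1155 and 817 (-0.49), and its 2 dim probe sets went from 59.6 to 27.8 and from 53.5 to 29.2. KIF11, the motor that pushes spindle poles apart, read 620 and 516 (-0.26). NUSAP1, a microtubule bundling protein, read 1496 and 1262 (-0.24) on one probe set and 982 and 1011 (0.04) on the other. DLGAP5, which stabilises microtubules near chromosomes, read 1149 and 1073 (-0.10). TPX2, which activates Aurora A on the spindle, was nearly equal at 2473 and 2505, and its difference of 0.02 became negative after quantile normalization, after removal of the intensity trend and against its neighbours.

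The cytokinesis genes were lower in 4 of 4, against 41.8% of all measured genes, with a median of -0.32. However, 2 of them had probe sets of both signs. KIF20A, a kinesin of the central spindle, read 1216 and 821 (-0.56) on its only probe set. KIF23, a kinesin of the centralspindlin complex, read 959 and 738 (-0.37), with a dim probe set at 38.65 and 20.7, below the floor in VHL-restored cells. ECT2, the exchange factor that activates RhoA at the cleavage furrow, read 1514 and 1255 (-0.27) on one probe set and 699 and 841 (0.26) on the other. ANLN, the furrow scaffold anillin, read 2249 and 1981 (-0.18) and, on a second probe set, 1608 and 1936 (0.27), so that the median of its probe sets was 0.04.

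The 3 genes of mitotic exit were spread widely, from -1.09 to 0.05. UBE2C, the ubiquitin-conjugating enzyme that starts chains for the APC/C, had the lowest difference of the 31, at 5630 in 786-O and 2639 in VHL-restored cells, 2.13-fold lower on its only probe set. PTTG1, which encodes securin, the inhibitor of separase, read 5499 and 3969 (-0.47), on an _x_at probe set that may also detect its closely related copies. CDC20, the activator of the APC/C at anaphase, read 3408 and 3534, a difference of 0.05 that became negative under the same 3 settings as for TPX2.

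MKI67 and TOP2A, both widely used to mark dividing cells, were not lower on the probe sets that stand for them. MKI67, which encodes the Ki-67 coat protein of mitotic chromosomes, read 711 in 786-O and 809 in VHL-restored cells, a difference of 0.18, and 555 and 635 on the next brightest. Its dimmer probe sets went the other way, from 329 to 291 (-0.17) and from 231 to 174 (-0.38). TOP2A, the topoisomerase that untangles sister chromatids, depended on the probe set: 2045 and 2054 on the first, a difference of 0.01, and 2327 and 1218 on the second, 1.90-fold lower. The median over both was -0.46, and with quantile normalization, with the intensity trend removed or against its neighbours the first was also slightly negative.

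Taking every probe set above the floor, 45 of 56 were lower in VHL-restored cells, against 44.1% of all single-gene probe sets above the floor, and their median was -0.37, against 0.04. At least 1.5-fold lower were 11 (19.6%, background 7.91%), at least 2-fold lower was that of UBE2C alone (background 2.70%), and none was 1.5-fold higher (6.29% of all measured genes). Of the 17 genes with several such probe sets, 9 were lower on all, 8 had both signs and none was higher on all. These counts were not taken over all genes, so they have no background to be read against. The SD between probe sets was 0.32 within these 17 genes, close to the 0.33 over all genes and not far below the median difference itself. Probe sets with the suffix _s_at, _x_at or _a_at, which may be shared between transcripts, had a median of -0.27 over 27, and the other 29 a median of -0.47. Over all genes the same 2 kinds had medians of 0.06 and 0.03.

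**Figure D3:**
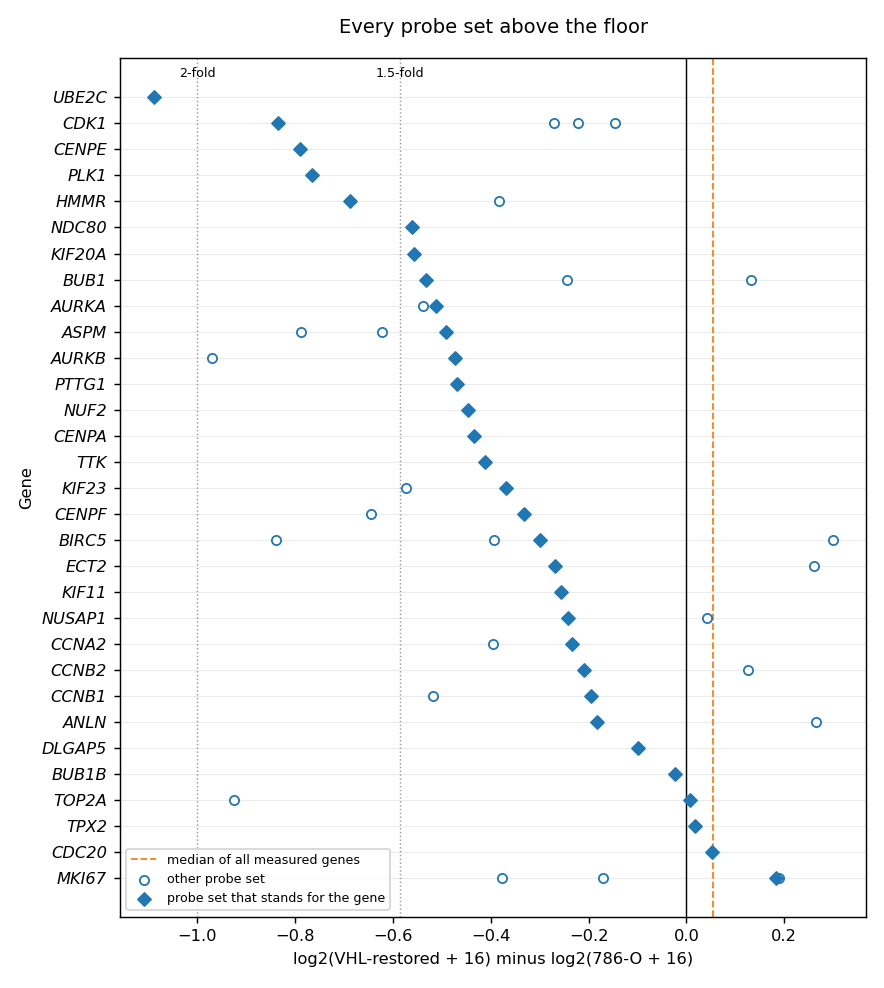
Log2 difference of each of the 56 probe sets above the floor, by gene, with diamonds for the probe set that stands for the gene and circles for the others; dotted lines mark 1.5-fold and 2-fold lower, and the dashed line the median of all measured genes. Most points lie left of 0, while TOP2A, BIRC5 and CDK1 have probe sets far apart.

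The genes lie on 14 autosomes, which allows each to be set beside its chromosomal surroundings. For each member, the median difference of up to 10 measured genes on either side was taken in GRCh38.p14 gene order. NDC80, near a chromosome end, had 15 neighbours in all. These neighbourhood medians ran from -0.15 around ECT2 to 0.33 around CDC20 and were negative in 7 of 31, with a median of 0.05, near the 0.06 found around all measured genes. All 31 members were below their own neighbours, against 50.1% of all measured genes, and by a median of -0.42. The margin was small for MKI67 (-0.02), TPX2 (-0.04) and BUB1B (-0.06). Against their neighbours UBE2C differed by -1.16 and CENPE by -1.004, the 2 genes past 2-fold on that scale. CDC20, slightly higher in VHL-restored cells as it stands, was -0.28 against neighbours that were higher still.

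**Figure D4:**
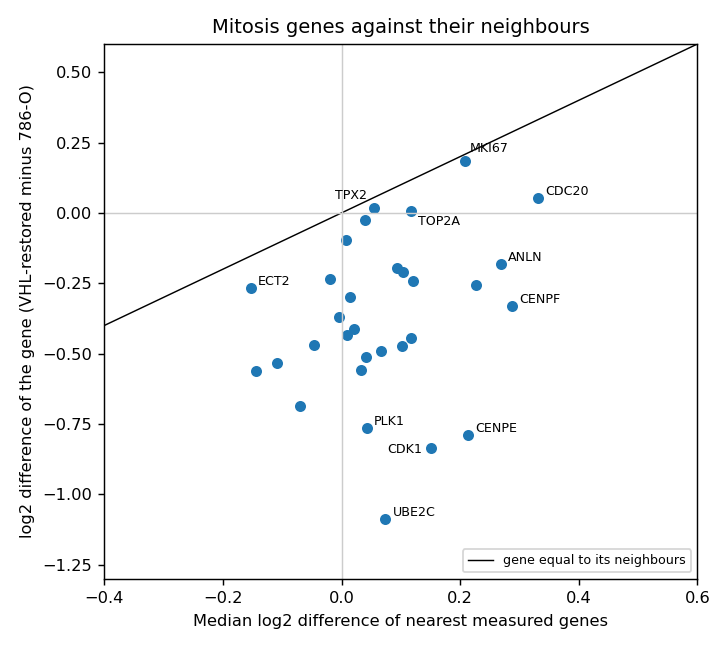
Log2 difference of each of 31 mitosis genes (vertical axis) against the median of the nearest measured genes, up to 10 on either side (horizontal axis). The line marks where they are equal. All points lie below the line, MKI67 and TPX2 just below it and UBE2C farthest, at -1.16.

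A longer list of other mitosis genes gave a smaller difference of the same sign. Of 96 measured, 65 were lower (67.7%, against 41.8% of all measured genes), with a median of -0.19, against 0.05. At least 1.5-fold lower were 12 (background 6.61%), and 1 was as much higher (background 6.29%). At least 2-fold lower were 4 (background 2.22%), and none was as much higher (background 1.56%). Those 4 were KIFC1, a minus-end directed spindle motor, at 836 in 786-O and 296 in VHL-restored cells (2.73-fold lower), INCENP, the scaffold of the passenger complex, at 103.7 and 39.2 (2.17-fold), CKAP2L, a spindle protein, at 788 and 364 (2.11-fold), and UBE2S at 4757 and 2275 (2.08-fold), each on 1 probe set. By role, the other genes of CDK1 control were lower in 8 of 8 (median -0.30), among them both activating and inhibiting enzymes. They ran from -0.79 for WEE1, whose other probe set gave -0.04, to -0.02 for MASTL, nearly equal on both arrays. The other spindle genes were lower in 17 of 20 (-0.39), cytokinesis genes in 4 of 4 (-0.29), condensin, separase and cohesin control in 7 of 10 (-0.23), and centromere and kinetochore genes in 16 of 23 (-0.19). Other mitotic kinases and passenger genes, lower in 3 of 6, and checkpoint and centromere protection genes, lower in 5 of 9, were close to evenly divided.

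APC/C genes did not share that direction and lay near the background, with 5 of 16 lower, against 41.8% of all measured genes, and a median of 0.10, against 0.05. UBE2S, which extends the ubiquitin chains that UBE2C starts, was 2.08-fold lower, close to the 2.13-fold of UBE2C. The 13 core subunits, a grouping made after the values were seen, differed by -0.41 to 0.55 on the probe sets that stand for them. Their median was 0.10 and none was past 1.5-fold. On the probe sets that stand for the genes, lower values were those of both conjugating enzymes and of FZR1, an APC/C activator in late mitosis and G1. FZR1 read 185 and 126 (-0.50), and its 4 probe sets above the floor ran from -0.97 to -0.18. Lower by smaller amounts were 3 core subunits, ANAPC13, ANAPC15 and ANAPC7. Other probe sets reached -0.52 for CDC23, -0.51 for ANAPC16 and -0.35 for ANAPC10, and 0.31 for ANAPC7 and 0.68 for CDC27. The division by function thus depends on the probe set chosen.

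Regulators of G2/M transcription were near the background, with 12 of 26 lower, against 41.8% of all measured genes. Their median was 0.02, against 0.05, turning to -0.02 with the intensity trend removed and -0.10 against chromosomal neighbours. None was 2-fold lower (background 2.22%) or 2-fold higher (background 1.56%) on the probe set that stands for it. TFDP1, at 0.55 on that probe set, reached 1.24 on another. CDKN1C, a CDK inhibitor, read 74.5 and 145 (0.83) and RBBP4, a chromatin subunit of MuvB, 1144 and 1938 (0.75), though the probe sets of RBBP4 ran from -0.34 to 1.14. The MuvB subunit gene LIN52 read 169 and 99.4 (-0.68) and the NF-Y subunit gene NFYC 189 and 304 (0.64). The activators FOXM1 and MYBL2, named after their values were seen, read 766 and 604 (-0.33) and 552 and 507 (-0.12). LIN54 was below the floor on both arrays.

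Genes of the G1/S transition and DNA replication were more often higher than lower. The share higher was not far from that of all genes, but the median and the shares 1.5-fold and 2-fold higher were larger. Of 28 measured, 9 were lower and 19 higher, against 41.8% and 56.9% of all measured genes, with a median of 0.32, against 0.05. At least 1.5-fold higher were 5 (17.9%, background 6.29%) and at least 2-fold higher 3 (10.7%, background 1.56%), and none was 1.5-fold lower (background 6.61%). The origin licensing gene ORC1 read 106 in 786-O and 308 in VHL-restored cells (1.41), and the G1/S cyclin gene CCNE2 268 and 723 (1.38). The helicase subunit gene MCM6 read 873 and 1792 (1.02) and the licensing factor gene CDC6 338 and 639 (0.89). Beside the mitosis genes, where 17 of 31 were lower by more than 0.33 and none higher, 2 of these 28 were lower by more than that (background 14.8%) and 14 higher (background 18.1%). The medians of the mitosis and the G1/S genes kept their signs under all 9 alternative settings. With 1 array per line the difference between the lists could not be tested. A CHR was found in 2 of 25 promoter windows of the G1/S list, against 20 of 26 for the mitosis genes and 47 of 84 for the longer mitosis list.

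**Figure D5:**
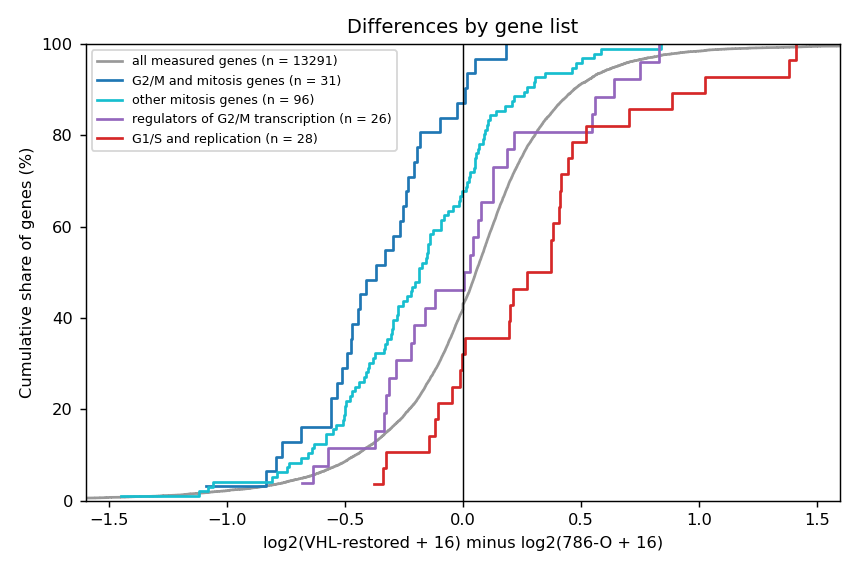
Cumulative share of genes (vertical axis, percent) by log2 difference, VHL-restored minus 786-O, (horizontal axis) for 31 G2/M and mitosis genes, 96 other mitosis genes, 26 regulators of G2/M transcription, 28 G1/S and replication genes and all 13291 measured genes. At 0 the curve of the mitosis genes has reached 87.1% and that of the G1/S genes 32.1%, on either side of all measured genes; tails beyond 1.6 are not drawn.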

How the data were processed

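The authors deposited a linear intensity for each of 54613 probe sets on each array, as the range of the values shows. R 2.10 is the tool named in the submitters' processing notes; the sources used here do not give the background correction, normalization or probe summary, which could compress or shift differences. The platform annotation named a single gene for 41091 probe sets, several for 1801 and none here for 11721, and current symbols were taken by Entrez number for 41037. Each gene was represented by the brightest of its single-gene probe sets, by the mean of both arrays, as log2(value + 16). With 1 array per line, genes were described by size (1.5-fold and 2-fold), with no test, standard error or p-value. Members and gene lists were chosen with earlier results of these data known. All 31 members were described, and of each other list the 4 measured genes with the largest absolute difference were named, with any other gene named after its values were seen. Alternatives were quantile normalization, removal of a lowess trend on intensity (fraction 0.3), no floor and a higher floor (106.7, the 75th percentile). Others were the median of a gene's probe sets, removal of suffixed probe sets (_s_at, _x_at, _a_at) and a pseudocount of 1 or of 64. The last was subtraction of the median of up to 10 measured genes on either side. Gene order came from the GRCh38.p14 annotation, whose build is not that of the array's design, and promoters from RefSeq. The procedure was tested on simulated data. Software was matplotlib 3.10.9, statsmodels 0.14.6, pandas 2.3.3 and numpy 2.4.6 under Python 3.11.15.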

Additional observations from a re-analysis of the deposited data

How the results depend on the processing

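No paired analysis was possible because there were no replicates, and none could be left out. Over 9 alternatives the median of the mitosis genes ran from -0.52, over the 22 genes left without suffixed probe sets, to -0.35 with a pseudocount of 64, and 21 of those 22 or 27 to 31 of 31 were lower, against 40.6% to 50.1% of all genes. With the intensity trend removed 9 were at least 1.5-fold lower (all genes 7.55%), and against chromosomal neighbours 2 were at least 2-fold lower (2.21%). Of 270 values of single genes, 258 kept their sign; the 12 that changed belonged to TOP2A, TPX2, CDC20, MKI67 and ANLN. Over the median of probe sets CDK1 was -0.25 and TOP2A -0.46, and without suffixed probe sets BIRC5 was -0.84. Both of these settings change which probe sets enter a value. Causes of the changes were not tested.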
